A study of Mus musculus with 6 samples.

Results

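The clustered protocadherin genes of the mouse lie on chromosome 18 in 3 arrays named alpha, beta and gamma. Accessible regions were chosen by position: a region was a member when its midpoint lay inside or within 50 kb of a protein-coding gene whose symbol begins with Pcdha, Pcdhb or Pcdhg on mm10. This gave 64 of the 69689 regions of the table and 64 of the 2262 on chromosome 18. The members were selected on the positions of called regions with earlier results of these data known, so positions and clusters are given as a description with no test. The rule took in 57 genes, 14 alpha, 22 beta and 21 gamma. The nearest region left out on the alpha side was 128.5 kb below Pcdha1 and the outermost member 32.2 kb below it. On the gamma side these distances from the end of the array were 60.0 kb and 41.8 kb.

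The regions come from ACC-seq, a Tn5 transposase assay of open chromatin, in 6 libraries of R1, a wild-type line of mouse embryonic stem cells grown on a layer of feeder fibroblasts that was taken off by replating. There were 2 libraries each of Fresh cells (no fixative, tagmented at 37 °C), Fix cells (1% formaldehyde for 10 min, tagmented at 55 °C) and Fix_1,6-Hex cells. The last were given 10% 1,6-hexanediol, an alcohol that dissolves many condensates, for 30 s and during the same fixation, and were also tagmented at 55 °C. The study asked how open chromatin responds when condensate occupancy is altered. The deposited table gives 1 position and 1 of 9 cluster names per region for the whole series, with no value per library. The depth is therefore unknown, no contrast between Fresh, Fix and Fix_1,6-Hex could be tested, and the sources used here do not state what pattern each cluster name stands for. The labels do not say whether the 2 libraries of a group came from separate cultures.

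Clustered protocadherins are cell adhesion proteins best known from neurons, where each cell switches on its own few members and so carries a surface identity that lets its branches avoid each other. In the alpha and gamma arrays every variable exon has its own promoter and is spliced to constant exons shared at the end of the array, while each beta gene is a complete gene in a single coding exon. CTCF and cohesin are known to loop these promoters to distal enhancers, and DNA methylation is known to keep unused promoters silent. The genes are transcribed from alpha towards gamma, so the lower limit of each gene is its start and is its own, and the upper limit of alpha and gamma genes is the shared constant end.

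The 3 arrays differed in how their regions were laid out. The alpha array (chromosome 18, 36930285 to 37188897) held 8 regions, the beta array (37264998 to 37521419) held 11 and the gamma array (37661775 to 37841873) held 31. A further 14 members lay outside the arrays, 1 below alpha, 1 between alpha and beta, 6 between beta and gamma, and 6 beyond gamma. Counted by the 50 kb rule for each array, 10 regions belonged to alpha, 14 to beta and 41 to gamma, with 1 region shared by alpha and beta. The gamma array is the shortest at 180.1 kb and carried 17.2 regions per 100 kb, against 3.09 in alpha and 4.29 in beta. Chromosome 18 from its first to its last region carried 2.58 per 100 kb. Of 14213 adjoining windows as long as the gamma array on the autosomes and X, the median held 3 regions and 6 held 31 or more. Windows as long as the alpha and beta arrays had a median of 4 regions each, and 35.0% held at least 8 and 25.8% at least 11. None of these windows were matched to the arrays for number of genes. Regions covered 14.2% of the gamma array, 1.44% of alpha and 1.57% of beta.

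**Figure D1:**
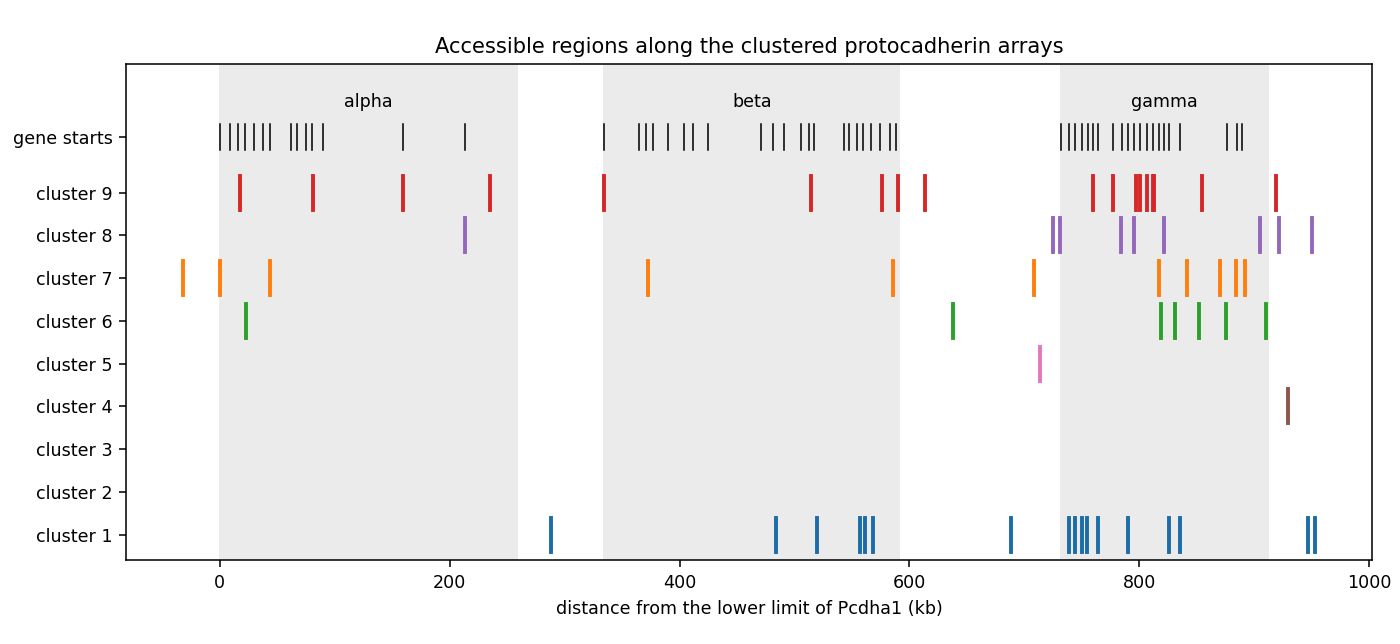
Position of the 64 member regions along the arrays, in kb from the lower limit of Pcdha1 (x axis), by cluster (y axis), with the starts of the 57 genes as black ticks and the array spans in grey. The gamma span holds 31 regions against 8 in alpha and 11 in beta, and no member lies in cluster 2 or 3.

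Gamma starts were nearly all accessible, alpha starts in part, and beta starts were almost without a region. A start was called accessible when the midpoint of a region lay within 1 kb of it. This held for 19 of 21 gamma genes (90.5%, exact binomial 95% interval 69.6 to 98.8), 6 of 14 alpha genes (42.9%, 17.7 to 71.1) and 1 of 22 beta genes (4.55%, 0.115 to 22.8). The same was found at 57.6% of the 17492 protein-coding genes of known strand, none of them on chromosome 18. These intervals cover counting only, and neighbouring genes are not independent. With a window of 500 bp the alpha count was 3 of 14, against 47.1% of genes of known strand, and with 2.5 kb the beta count was 11 of 22, against 65.8%. The sources used here do not state how reads matching several of these related genes were placed, so a gene without a region need not be closed.

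**Figure D2:**
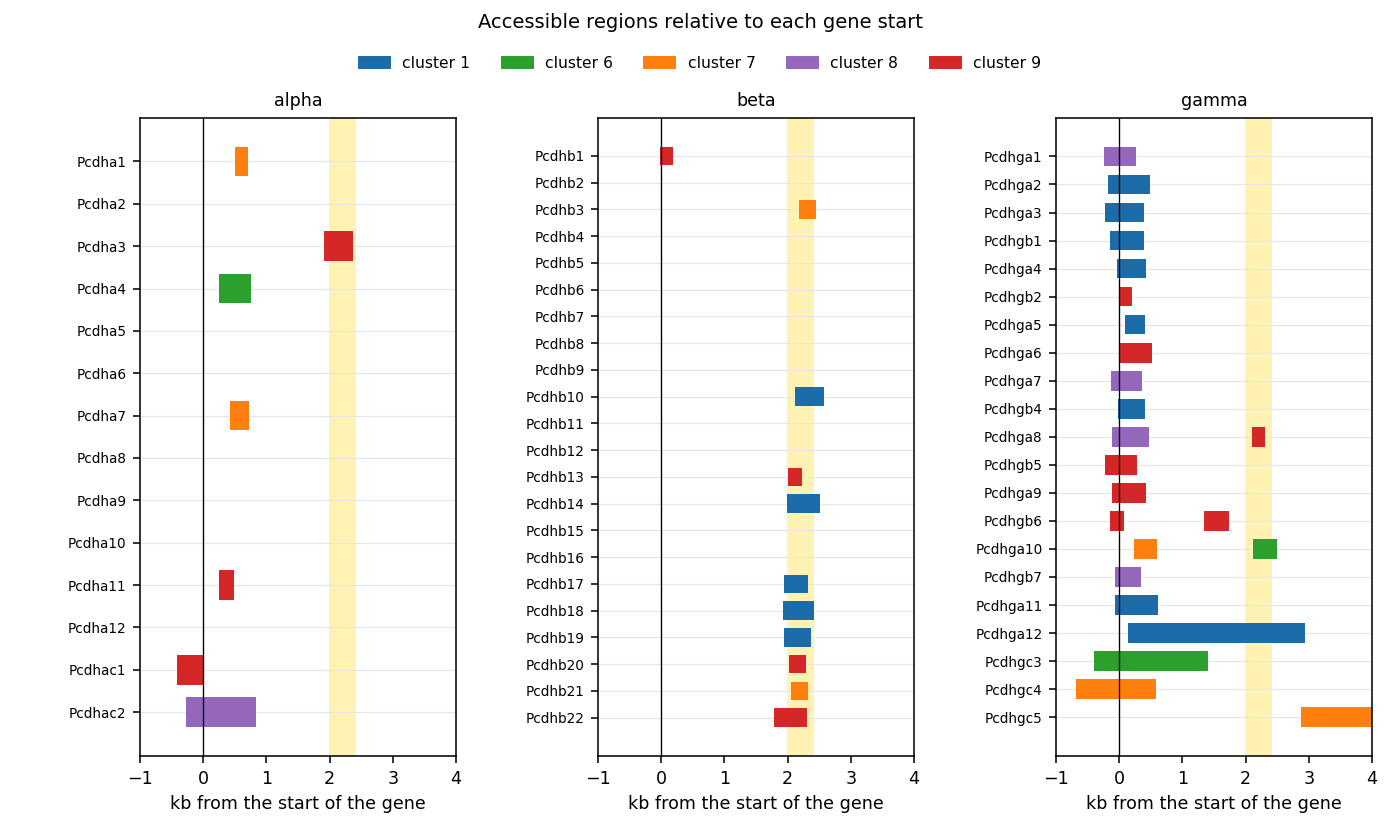
Every region from 1 kb before to 4 kb past the start of each gene (x axis, kb from the start), 1 row per gene in chromosomal order, coloured by cluster; the yellow band marks 2 to 2.4 kb past the start. Of the 19 gamma start regions 15 span the start and 4 begin past it, and 10 of 11 beta regions lie in the band.

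In the gamma array, whose A and B types are chosen variably among neurons, most genes had a region at the start. All 6 B-type genes and 11 of 12 A-type genes were called. The midpoints of the 19 start regions ran from -49.5 to 498.5 bp relative to the start (negative values lie before it), with a median of 148.5 bp. Over the 10070 called genes of known strand the median was 109.5 bp, with quartiles of -52 and 310.5 bp. Of the 19 regions, 15 spanned the start, and those of Pcdhgb2, Pcdhga5, Pcdhga6 and Pcdhga10 began 2 to 240 bp past it. The exception among A types was Pcdhga12. Its region began 132 bp past the start and was 2807 bp wide, so its midpoint fell 1535 bp in. The pseudogene Pcdhgb8 was outside the rule, and it too had a region, of 584 bp in cluster 6, at -174.5 bp relative to its start. Neighbouring gamma starts were a median of 5369 bp apart, with a range from 4154 to 40830 bp.

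Gamma starts belonged to 5 clusters. The region at Pcdhga1 was in cluster 8. Pcdhga2, Pcdhga3, Pcdhgb1 and Pcdhga4 followed in cluster 1, then Pcdhgb2 in cluster 9, Pcdhga5 in cluster 1, Pcdhga6 in cluster 9, Pcdhga7 in cluster 8, Pcdhgb4 in cluster 1 and Pcdhga8 in cluster 8. Next came Pcdhgb5, Pcdhga9 and Pcdhgb6 in cluster 9, Pcdhga10 in cluster 7, Pcdhgb7 in cluster 8 and Pcdhga11 in cluster 1. Both types were spread over clusters: A-type starts were 5 in cluster 1, 3 in cluster 8, 2 in cluster 9 and 1 in cluster 7, and B-type starts 2, 1, 3 and 0. The longest stretches of adjacent gamma regions of the same cluster were 5 of cluster 9 from Pcdhga8 to Pcdhgb6 and 4 of cluster 1 from Pcdhga2 to Pcdhga4. Of the 30 pairs of adjacent regions in the gamma array, 8 shared a cluster (26.7%), against 19.4% of 69662 adjacent pairs in the whole table. Start regions in the gamma array were 200 bp (Pcdhgb2) to 1804 bp wide (Pcdhgc3), with a median of 505 bp. A width of 200 bp is the smallest of any region, and 6.60% of all regions have it.

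The C-type genes, which close the alpha and gamma arrays and are known to be expressed more evenly among neurons, were called at 4 of 5 starts. Pcdhac1 had a cluster 9 region of 438 bp and Pcdhac2 a cluster 8 region of 1107 bp, the widest of the alpha array. Pcdhgc3 had a cluster 6 region of 1804 bp and Pcdhgc4 a cluster 7 region of 1272 bp. Pcdhgc5 was the exception, with no region within 1 kb of its start. The widest member lay inside it, from 37822417 to 37826907, beginning 2871 bp past its start. That region was 4491 bp wide and in cluster 7, whose regions had a median of 345 bp. It ranked as number 14 by width among the 13205 regions of that cluster. The shared constant end of the gamma genes, known to encode the common cytoplasmic part, lay under a cluster 6 region of 2553 bp (37840325 to 37842877). All 21 gamma genes share this region at their upper limit, so it was counted once and not as support for any gene. No region lay within 1 kb of the shared end of the alpha genes. A cluster 9 region of 446 bp (37165375 to 37165820) lay inside the alpha genes between the start of Pcdhac2 and that end.

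Among the alternate alpha genes, 4 of 12 starts were called (33.3%, exact binomial 95% interval 9.92 to 65.1). That interval includes the 57.6% of genes of known strand. Pcdha1 and Pcdha7 had cluster 7 regions of 200 bp and 305 bp, Pcdha4 a cluster 6 region of 513 bp and Pcdha11 a cluster 9 region of 247 bp. The midpoints of these regions lay 366 to 605.5 bp past the starts, farther in than the gamma median. All 4 regions began past the start, by 243 to 506 bp, so none covered it. Of the 6 alpha start regions only 2 spanned the start, those of Pcdhac1 and Pcdhac2. Pcdha3 had no start region but a cluster 9 region of 471 bp with its midpoint 2143 bp past its start. CTCF is known to bind both the promoter and the variable exon of many alpha genes; no binding was measured here. Pcdha2, Pcdha5, Pcdha6, Pcdha8, Pcdha9, Pcdha10 and Pcdha12 had no region between 1 kb before their start and 1 kb before the start of the next gene. A gap of 78370 bp without a region separated Pcdha11 from Pcdhac1 and contained the start of Pcdha12. Alpha was also the array with no region in cluster 1, and the 0 of 8 allows a share of up to 36.9% by the exact binomial 95% interval, so an absence is not detectable at this number.

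Of the 22 beta genes, 1 had a region at its start, 10 had a region farther inside the gene and 11 had none. Only Pcdhb1 had a start region, of 204 bp and in cluster 9. The other 10 beta regions lay 1 each in Pcdhb3, Pcdhb10, Pcdhb13, Pcdhb14 and Pcdhb17 to Pcdhb22, with midpoints between 2042 bp (Pcdhb22) and 2349 bp (Pcdhb10) past the start and a median of 2165.75 bp. Their distances to the start thus spanned 307 bp, while their distances to the end of the gene ran from 491 to 2864 bp, a span of 2373 bp. Beta genes were 2340 to 5271 bp long. A region 2000 to 2400 bp past the start, a band set after the positions were seen, was found at 2.09% of the 15055 genes of known strand longer than 2400 bp. Among the 1788 of these no longer than the longest beta gene it was 2.40%. In the gamma array Pcdhga8 and Pcdhga10 had a further region in the same band, at 2207 bp (cluster 9, 211 bp wide) and 2307.5 bp (cluster 6, 392 bp wide), and Pcdhgb6 had a further one at 1543 bp.

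The beta regions were narrow and came from 3 clusters. Cluster 1 held 5 of the 11, at Pcdhb10, Pcdhb14, Pcdhb17, Pcdhb18 and Pcdhb19, and the last 4 of these were adjacent regions. Cluster 9 held 4, at Pcdhb1, Pcdhb13, Pcdhb20 and Pcdhb22, and cluster 7 held 2, at Pcdhb3 and Pcdhb21. Widths were 204 to 531 bp with a median of 371 bp. Cluster 1 members were the wider ones among the beta regions, with 371 to 526 bp, apart from Pcdhb22 with 531 bp. The other 11 beta genes (Pcdhb2, Pcdhb4 to Pcdhb9, Pcdhb11, Pcdhb12, Pcdhb15 and Pcdhb16) had no region inside them or within 1 kb of a limit. The widest gap among the members, 110546 bp (37303247 to 37413792), contained the starts of 7 genes from Pcdhb4 to Pcdhb10. Counting either limit, 3 of 22 beta genes were called, with Pcdhb10 and Pcdhb21 joining through their ends, against 60.9% of 21887 protein-coding genes.

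Regions at protocadherin starts lay outside clusters 2, 3 and 4, which were frequent at gene starts in general. None of the 26 start regions was in cluster 2, 3 or 4, which allows a share of up to 11.5%, against 37.6% of the 9191 regions at starts of genes of known strand. Clusters 7 and 9 held 12 of the 26 (46.2%, exact binomial 95% interval 26.6 to 66.6), against 10.5% at starts in general and 45.2% of all 69689 regions. Clusters 1, 6 and 8 held the remaining 14 (53.8%), against 47.2%. By single cluster, 8 were in cluster 9, 7 in cluster 1, 5 in cluster 8, 4 in cluster 7 and 2 in cluster 6. Their median width was 492 bp, against 1113 bp at starts in general, and clusters 2, 3 and 4 had medians of 1243.5, 1279 and 1366.5 bp in the whole table. Width therefore moved with this difference, and its part in it was not tested. Whether the lack of clusters 2, 3 and 4 at starts was particular to these genes was not tested. Other arrays were counted by the wider 50 kb rule, where these clusters held 9.36% of all regions and 1 of the 64 members. By that rule HoxB (31 regions), HoxD (20), desmosomal cadherin (21) and Ugt1a (3) genes had no region in them, and sets this small allow no conclusion. HoxA, HoxC, keratin, olfactory receptor and histone genes had some, with 21.7% in cluster 3 for histone genes. The 6 called protocadherin genes outside the arrays had none in them at their limits. The shares carry no test because the members were chosen with the clusters known.

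**Figure D3:**
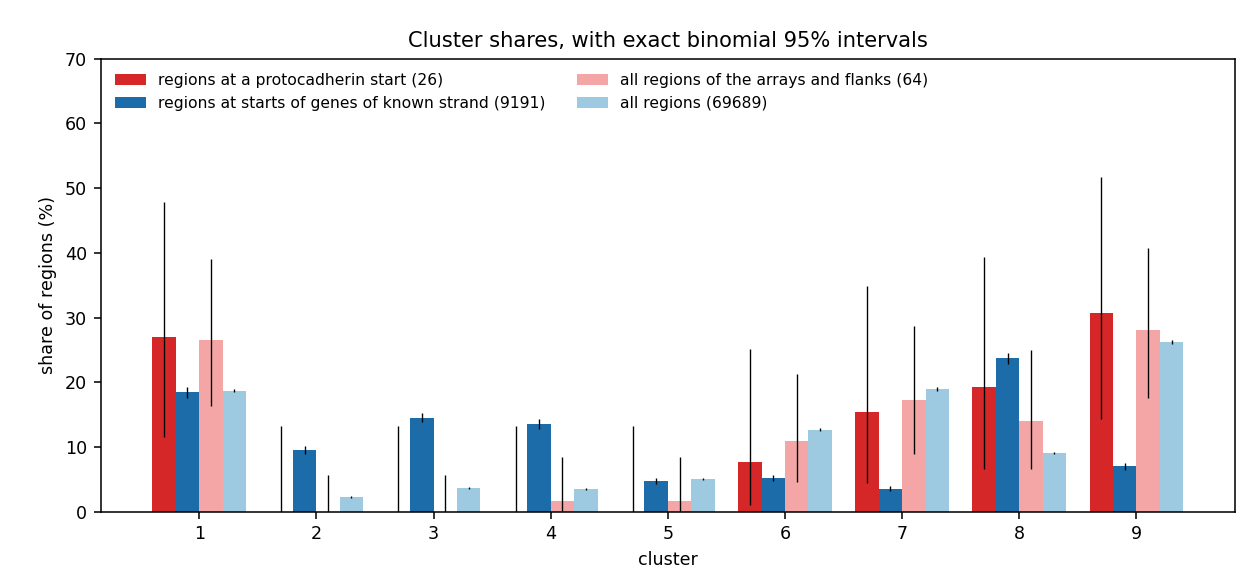
Share of regions in each of the 9 clusters (y axis, %) for regions at protocadherin starts, regions at the starts of genes of known strand, all members and all regions, with exact binomial 95% intervals as bars. Clusters 2, 3 and 4 hold 37.6% of regions at gene starts and 0 of the 26 at protocadherin starts.

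Over all 64 members the shares of clusters 1, 6, 7, 8 and 9 lay near those of the table. Cluster 9 held 18 (28.1%, exact binomial 95% interval 17.6 to 40.8), cluster 1 held 17 (26.6%, 16.3 to 39.1), cluster 7 held 11 (17.2%), cluster 8 held 9 (14.1%) and cluster 6 held 7 (10.9%). Among all regions these clusters held 26.2%, 18.7%, 18.9%, 9.04% and 12.7%. Clusters 4 and 5 held 1 member each, both outside the arrays, and clusters 2 and 3 none, which allows up to 4.69% each. The table-wide shares were 2.27% for cluster 2 and 3.61% for cluster 3. The absence of either alone is therefore not detectable at 64 regions. Clusters 2, 3 and 4 together held 1 member (1.56%, exact binomial 95% interval 0.0396 to 8.40), against 9.36% of all regions. Inside the arrays they held 0 of 50, with an interval up to 7.11%. These intervals cover counting only. Member widths ran from 200 to 4491 bp with a median of 462.5 bp, against 474 bp in the table. All but 1 of the 8 members over 1 kb lay in the alpha or gamma arrays.

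Some members lay at a limit of or inside other genes of the interval, and which gene they serve was not tested. The cluster 5 region of 880 bp between beta and gamma (37643781 to 37644660) lay at the upper limit of Taf7, a subunit of the general transcription factor TFIID. The cluster 7 region of 433 bp (37638325 to 37638757) lay at the upper limit of Slc25a2, a mitochondrial ornithine carrier. All 6 regions beyond the gamma array were inside Diaph1, a formin that nucleates actin, and none was at its limits. They comprised 2 of cluster 1, 2 of cluster 8, 1 of cluster 9 and the only cluster 4 member (1028 bp, 37859911 to 37860938). The single region between alpha and beta (37218039 to 37218502, cluster 1) lay 30.4 kb past the shared end of the alpha genes. Enhancers are known in this interval and beyond gamma, but no coordinates of them were compared here. The annotation also lists the read-through genes Gm37013, Gm38666 and Gm38667, which run from alpha exons to the gamma end and contain 54 or 55 of the members.

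Other tandem arrays were counted by the same rules for comparison, without a test. Starts of known strand were called at 43 of 58 replication-dependent histone genes (74.1%), 6 of 9 HoxA genes and 6 of 9 HoxD genes. Over all protein-coding genes of known strand the share was 57.6%. The exact binomial 95% interval of HoxA and of HoxD, 29.9 to 92.5%, includes that share. Keratin genes had 4 of 36 (11.1%), olfactory receptor genes, also expressed by random choice in neurons, 7 of 944 (0.742%), and genes of Ugt1a 0 of 8. The Ugt1a array likewise joins variable exons to shared ones, and 0 of 8 allows up to 36.9% by the exact binomial 95% interval. HoxB, with 3 of 3, and HoxC, with 0 of 1, had too few genes of known strand to be set beside them. Cluster shares within 50 kb were compared by the sum of absolute differences over the 9 clusters. The nearest of the listed arrays were the keratin genes (68 regions, 23.0 percentage points), HoxA (28 regions, 30.8) and HoxD (20 regions, 38.8). The whole table gave 29.6, so HoxA and HoxD were no nearer than regions in general. Counting noise raises this sum in sets of few regions, so its values alone do not show a likeness.

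**Figure D4:**
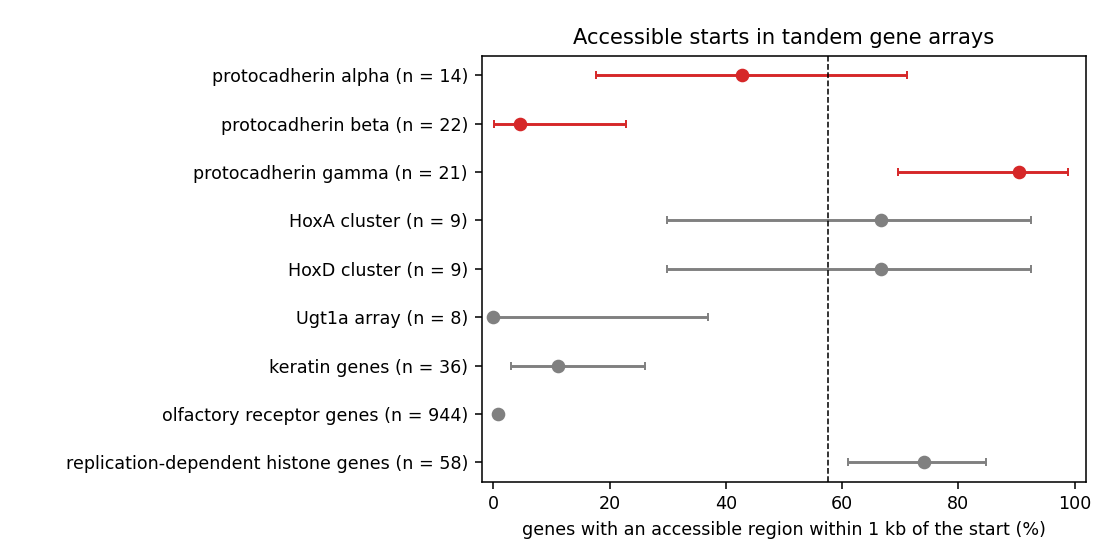
Percentage of genes with an accessible region within 1 kb of the start (x axis) in the 3 protocadherin arrays (red) and other tandem arrays of known strand (grey), with exact binomial 95% intervals; the dashed line is the 57.6% of all protein-coding genes of known strand. Gamma lies at 90.5%, alpha at 42.9% and beta at 4.55%.

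Genes known to control the arrays mostly had a region within 1 kb of a limit, at 17 of 23 (73.9%, exact binomial 95% interval 51.6 to 89.8, against 60.9% of protein-coding genes). They included Ctcf, the insulator protein that binds protocadherin promoters, in cluster 8, and the cohesin subunits Smc1a and Smc3, both in cluster 4. The cohesin subunit Rad21 and the cohesin loader Nipbl had none within 1 kb. With a window of 2.5 kb the count of control genes was 21 of 23, against 69.8% of protein-coding genes. A gene without a region by the 1 kb rule therefore need not be closed. Among genes of binding partners and signalling, 14 of 17 had one (82.4%, 56.6 to 96.2), among them the kinases Ptk2 in cluster 6, Ptk2b in cluster 9 and Fyn in cluster 4, and Abi2 and Nlgn3 had none. As a check of the labelled cell type, all 7 stem cell markers had a region at a limit (Pou5f1, Nanog, Sox2, Esrrb, Klf4, Zfp42 and Dppa4). So did 5 of 7 feeder fibroblast markers, with Col3a1 and Prrx1 without, and 5 of 7 neuron markers, with Rbfox3 and Dcx without. The presence of a region thus does not separate these cell types, and the part of feeder cells in the protocadherin regions was not tested.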

How the data were processed

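ACC-seq of 6 R1 libraries was processed on mm10. The submitters' processing notes name Bowtie2 2.3.3.1, SAMtools 1.6, cutadapt 1.18 and Picard. The sources used here do not state how regions were called, merged and clustered. The deposited table holds positions and cluster names, which are other values than counts or signal, so no model of the 3 groups, no precision per library and no test across libraries could be made. Positions, counted from 0 in the deposited table, are given from 1.

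Genes came from a RefSeq table of GRCm38.p6, the assembly of mm10, with 21887 nuclear protein-coding genes. The strand of 17492 of them came from a promoter table. The direction of the protocadherin genes is background knowledge. Promoter sequence features were planned and not analysed here. Midpoints decided position. Shares carry exact binomial 95% intervals, and a count of 0 is given as up to 3 counts of the total unless the interval is named. Analyses used SciPy 1.17.1, pandas 2.3.3, numpy 2.4.6, Python 3.11.15 and, for plots, matplotlib 3.10.9, and the counting rules were tested on simulated data.

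The members, the 8 gene lists (117 entries, all matched) and the 9 comparison arrays were chosen with earlier results of these data known. Every array gene with a region at its own limit was named, other interval genes with a member at a limit, and of each list the first 3 members with and the first 2 without a region, in list order. Diaph1, the read-through genes, Pcdhgb8 and the genes with a region in the band past the start were named after their values were seen. So were the full marker lists and the remaining protocadherin genes outside the arrays. Alternatives were other windows, any overlap, regions of 300 bp or wider, pseudogenes and, added after seeing the data, other bands past the start.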

Additional observations from a re-analysis of the deposited data

How the results depend on the processing

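The number of member regions stayed within 1.5 times of 64 under all 6 alternatives, from 50 (inside a gene) to 69 (a window of 100 kb). Of 100 alternative values of the main results, 88 stayed within 1.5 times or within the interval and 12 moved. The alternatives mostly reuse the same regions, and any overlap and pseudogenes gave 64 members again. Much of this stability was therefore built in. Alpha starts fell to 3 genes with a limit window of 500 bp, where 47.1% of genes of known strand were called. With regions of 300 bp or wider they were 4, without Pcdha1 and Pcdha11, against 55.8%. Beta genes rose to 11 by start and by either limit with 2.5 kb. The shares of all genes were then 65.8% by start and 69.8% by either limit. By either limit with any overlap beta had 6 genes, against 65.7%. With regions of 300 bp or wider, beta had 0 genes by start and 1 by either limit, against 55.8% and 58.7% of all genes. It then had 2.34 regions per 100 kb in place of 4.29, since 5 of its 11 regions were narrower. The shares of clusters 4 and 5 became 0% inside genes and with a window of 10 kb, because both members lie outside the arrays. Gamma starts stayed between 17 and 20 genes under all 4 alternatives, while genes of known strand ran from 47.1% to 65.8%. The 17 came with regions of 300 bp or wider, where Pcdhgb2 and Pcdhgb6 lost their call. Of 232 alternative calls at single starts, 21 changed. Of 32 alternative counts of gene lists, 3 moved, all at 500 bp, where 49.3% of protein-coding genes were called in place of 60.9%. The band of 1500 to 2500 bp past the start held the same number of beta genes, 10, against 5.29% of genes of known strand.

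No paired analysis was possible because the table holds no value per library, and leaving out a replicate could not be run for the same reason. Depth is unknown. With 8 to 31 regions in an array, shares of clusters within it have wide intervals.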

Other observations

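Protocadherin genes outside the arrays, which encode related adhesion proteins without variable exons in tandem, had a region within 1 kb of a limit at 6 of 12 (50.0%, exact binomial 95% interval 21.1 to 78.9, against 60.9% of protein-coding genes). They were Pcdh1 (2 regions of cluster 1), Pcdh8 (cluster 8, 2709 bp wide), Pcdh17 (cluster 5, 1126 bp), Pcdh18 and Pcdh19 (both cluster 1) and Pcdh20 (cluster 7, 294 bp). Pcdh7, Pcdh9, Pcdh10, Pcdh11x, Pcdh12 and Pcdh15 had none. With 500 bp the count was 4, against 49.3% of protein-coding genes, and with 2.5 kb it was 9, against 69.8%.

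Other cadherins had a region at 20 of 35 genes (57.1%, 39.4 to 73.7), near the 60.9% of protein-coding genes. Cdh1, the E-cadherin of epithelia and stem cells, was in cluster 4, Cdh2, the N-cadherin of neurons, had regions of clusters 9 and 8, and Cdh3 was in cluster 1. Cdh5, of endothelium, and Cdh6 had none. With 500 bp the count was 12, and the share of protein-coding genes was 49.3%. The desmosomal cadherins form another tandem array on chromosome 18. A region was found at 2 of its 9 genes (22.2%, 2.81 to 60.0, against 60.9%). These were Dsg2 in cluster 6 (2402 bp wide) and Dsc2 in cluster 7 (402 bp). Dsg1a and Dsg1b had none.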
